A study of Homo sapiens with 6 samples.

Results

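The neurofilament and neuronal cytoskeleton genes NEFL, NEFM, NEFH, INA, GAP43, MAPT, MAP2, TUBB3, STMN2 and DPYSL3 are 10 of the 19775 genes that had a probe set with a single platform gene symbol. A probe set is a group of short probes on the array that reads a transcript, and the 10 genes had 26 of them, all shown here. RNA came from U251, an established human glioma cell line that was infected with virus and selected with puromycin to give stable lines. The study measured 3 arrays of U251 cells overexpressing PARK2, which codes for the ubiquitin ligase parkin, and 3 arrays of control U251 cells overexpressing GFP. Both groups thus share the parent line, the infection and the selection, and no label says whether a line is 1 clone or a pool. The arrays of a group are labelled biological replicates, with no word on separate cultures, so their spread may be technical. No label tells lines within a group apart, so the p-values given later measure spread among arrays. A difference between the selected lines cannot be told apart from an effect of PARK2.

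Neurofilaments are the intermediate filaments of neurons and set the calibre of axons. Light, medium and heavy chains and alpha-internexin assemble together, and the light chain is the core subunit. The microtubule partners of this scaffold include the tau protein, MAP2 and neuronal beta-tubulin, while GAP43, stathmin-2 and the CRMP family act in the growth cone, the moving tip of a growing axon. Glioma cells are of glial character, with vimentin, nestin and GFAP as their usual intermediate filaments.

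The 10 genes were chosen by the measured difference between PARK2 and control arrays, in which NEFL and GAP43 stood on opposite sides. Their values in that comparison are therefore a description, and no test is given for them. Values are linear intensities as deposited. Log2 differences are PARK2 minus control on the log2(intensity + 16) scale, where 16 is a pseudocount that makes the change of dim probe sets smaller. The SE of a member's difference is that of the difference of group means.

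The median intensity of an array lay between 16.2 and 19.3. Control probe sets at the 3′ and 5′ ends of a transcript had a 3′ to 5′ ratio of 3.53 to 5.66 for ACTB. For GAPDH the ratio was 1.02 to 1.17. The part of this in differences between probe sets of a gene was not tested. Arrays of the same group correlated at 0.983 to 0.990 and arrays of different groups at 0.954 to 0.962 (Pearson's r across 26603 probe sets, which are not independent replicates). Probe sets for VIM, NES, SOX2, SOX9 and CD44 were bright. Of 13 glioma and astrocyte markers 11 were past the low-value filter, with AQP4 and SLC1A2 under it. ALDH1L1 passed but was dim, with means of 19.8 in control and 19.7 in PARK2 arrays. The glioma label itself was not tested by these values. Of the glioma and astrocyte markers tested GFAP rose, and S100B and SLC1A3 fell (log2 difference -1.39 and -0.72). Control sums over the 8 microglia and blood cell markers measured were 41.1 to 55.6 and PARK2 sums 47.3 to 72.5, those of 6 endothelial markers 121 to 136 and 121 to 154, and those of 8 oligodendrocyte markers 1280 to 1532 and 1100.1 to 1383. Fibroblast and mural cell markers (8 genes) summed to 3768 to 4544 (control) and 5355 to 6242 (PARK2), most of it COL1A2, which rose by 0.56, and the part of this in any result was not tested. Of 23 neuron markers measured 10 were under the filter, among them RBFOX3, ELAVL3, ELAVL4, DCX and SYP. The 13 that passed it included SYN1, SYN2, SLC17A7, SNAP25 and SYT1, of which SNAP25 (log2 difference 1.26) and SYT1 (2.50) rose. SYT1 kept its call with each single array left out and SNAP25 did not. In bulk RNA, fewer cells of a type and less RNA per cell cannot be told apart.

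NEFL codes for the neurofilament light chain, and its probe sets had the largest differences of the 26. Probe set 221805_at was at 107, 101 and 65.3 in control replicates 1 to 3 and at 2886, 3043 and 3017 in PARK2 replicates 1 to 3. Probe set 221916_at read 59.2, 53.4 and 74.5 in control and 2058, 2010.2 and 1983 in PARK2 arrays, and 221801_x_at, a type that may also read related transcripts, read 19.2, 20.5 and 9.85 against 392, 348 and 423. Every PARK2 array lay far above every control array on all 3 probe sets, and the groups did not overlap. The ratio of group means was 32.7, 32.3 and 23.5, in the order named. The log2 differences were 4.83 (SE 0.19), 4.71 (SE 0.11) and 3.65 (SE 0.18), which placed the probe sets 2nd, 5th and 26th from the top among the 26603 probe sets tested. The dimmest of the 3 depended most on the pseudocount, at 4.53 with 1 and 2.49 with 64.

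The other neurofilament chains were at the bottom of the scale in both groups. NEFM, the medium chain, was at 5.26, 1.31 and 16.7 in control and 5.19, 1.55 and 2.33 in PARK2 arrays on probe set 205113_at, and between 0.924 and 1.64 in all 6 arrays on 223902_at. NEFH, the heavy chain, stayed between 0.551 and 6.64 on both of its probe sets. At such low values single arrays scattered without order, and the groups overlapped. INA, which codes for alpha-internexin, was at 17.3, 1.44 and 13.2 in control and 2.22, 2.60 and 3.75 in PARK2 arrays, and control replicate 2 lay below all 3 PARK2 arrays. All 5 probe sets of NEFM, NEFH and INA were under the low-value filter, which corresponds to a mean intensity of about 9.96. Their log2 differences ran from -0.45 (INA, SE 0.29) to 0.04 (NEFH, SE 0.12).

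**Figure D1:**
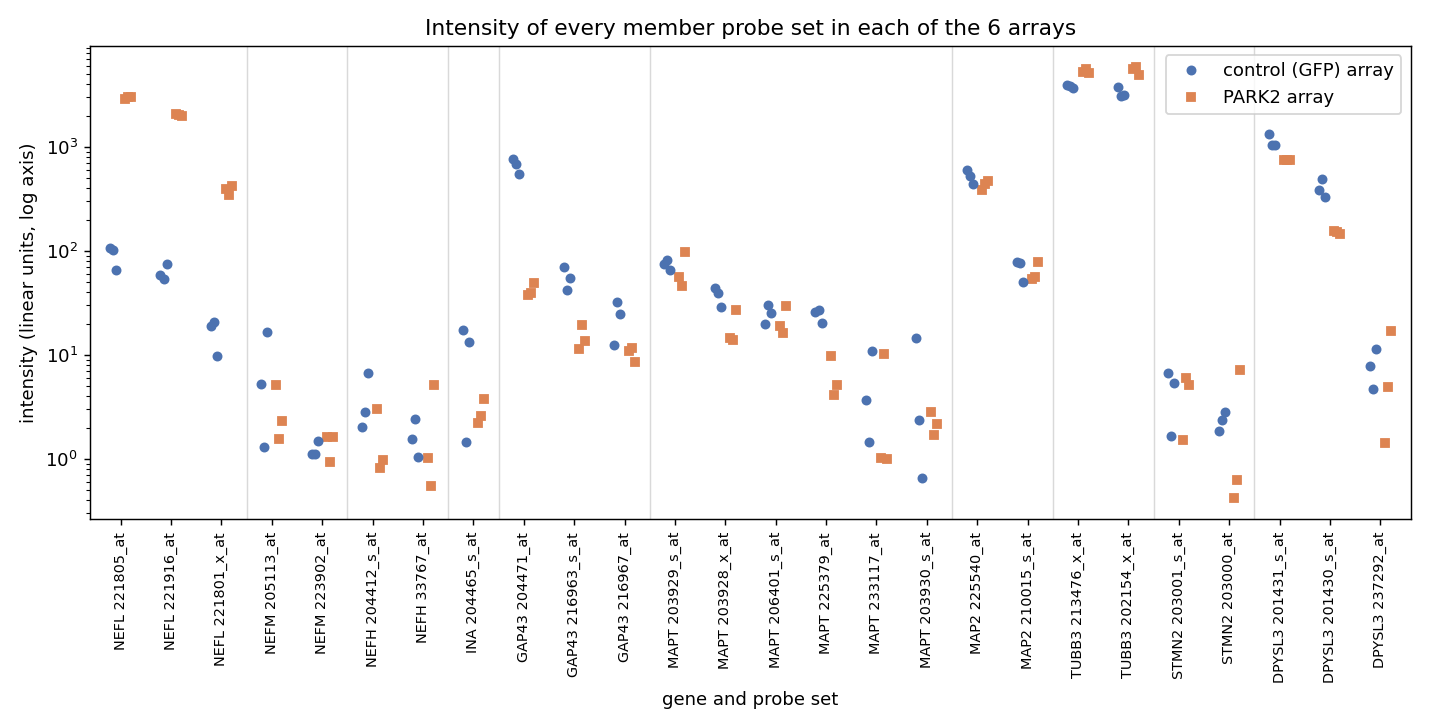
Intensity of each of the 26 member probe sets (x axis) in the 3 control arrays (circles) and the 3 PARK2 arrays (squares), in linear units on a log axis. The 3 NEFL probe sets are at 348 or more in PARK2 arrays and at 107 or less in control arrays, while GAP43 probe set 204471_at is at 555 or more in control and 48.8 or less in PARK2 arrays.

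GAP43, the growth-associated protein of growth cones and presynaptic membranes, stood lower in PARK2 cells on each of its 3 probe sets. Probe set 204471_at was at 771, 693 and 555 in control and 38.1, 39.8 and 48.8 in PARK2 arrays. Probe set 216963_s_at was at 69.8, 42.1 and 54.7 in control and 11.3, 19.4 and 13.7 in PARK2 arrays, and 216967_at at 12.4, 32.2 and 24.5 against 10.8, 11.5 and 8.48. The groups did not overlap on any of the 3, but on the dimmest the lowest control array came within 1 intensity unit of the highest PARK2 array. Control means were 15.9, 3.76 and 2.24 times the PARK2 means. The log2 differences were -3.56 (SE 0.16), -1.21 (SE 0.20) and -0.54 (SE 0.23), and the first was the 3rd lowest of all 26603 tested. The probe sets of GAP43 thus had the same direction and differed in size, and their mean was -1.77. With pseudocounts of 1 and 64 the dimmer pair was at -1.84 and -0.60 (216963_s_at) and at -1.01 and -0.22 (216967_at).

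Upstream sequence was matched for 5 of the 10 genes in RefSeq's promoter table (GRCh38.p14). The 250 bases before the annotated start are shown for GAP43, TUBB3 and DPYSL3, the matched genes with probe sets whose groups did not overlap, to set their base composition side by side. Capitals mark each CG pair, and all are read 5′ to 3′ on the gene's strand. GAP43 lies at chr3:115623260-115623509 on the plus strand, DPYSL3 at chr5:147510069-147510318 on the minus strand and TUBB3 at chr16:89921675-89921924 on the plus strand.
GAP43: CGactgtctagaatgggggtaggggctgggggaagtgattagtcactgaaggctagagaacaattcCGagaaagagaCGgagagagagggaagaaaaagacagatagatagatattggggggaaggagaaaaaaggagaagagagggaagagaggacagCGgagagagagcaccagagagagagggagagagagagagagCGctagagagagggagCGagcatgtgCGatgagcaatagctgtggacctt
DPYSL3: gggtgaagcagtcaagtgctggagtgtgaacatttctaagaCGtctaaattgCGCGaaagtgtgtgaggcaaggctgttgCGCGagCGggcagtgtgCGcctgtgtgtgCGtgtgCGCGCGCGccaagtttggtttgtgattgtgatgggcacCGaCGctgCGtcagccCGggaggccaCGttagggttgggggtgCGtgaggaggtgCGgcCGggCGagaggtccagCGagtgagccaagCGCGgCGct
TUBB3: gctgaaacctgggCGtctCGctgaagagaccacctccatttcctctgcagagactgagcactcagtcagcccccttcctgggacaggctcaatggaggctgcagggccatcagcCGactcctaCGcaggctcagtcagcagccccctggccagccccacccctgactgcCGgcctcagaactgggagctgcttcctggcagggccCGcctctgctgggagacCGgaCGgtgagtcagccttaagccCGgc

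The GAP43 window held 7 CG pairs, that of DPYSL3 25 and that of TUBB3 9, against a median of 11 over all 35116 promoters. The GAP43 window was rich in A and G: 78.4% of its bases were purines, more than in 99.9% of all promoters, while DPYSL3 had 58.8% and TUBB3 46.8%. On either strand, the letters CCAAT were found in 1 of the 5 windows (GAP43) and in 32.0% of all promoters, the letters GGGCGG in 1 (INA, with 4 copies) and in 42.6%, and the letters CAGCTG in 1 (INA) and in 14.0%. The letters TATAAA were in 0 of the 5 windows and in 10.7% of all promoters. None of these motifs contains another. The matches describe these windows only.

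DPYSL3 codes for CRMP4, a cytosolic protein of the collapsin response mediator family that binds actin and tubulin. Its brightest probe set, 201431_s_at, was at 1347, 1052 and 1048 in control and 756, 749 and 751 in PARK2 arrays, a log2 difference of -0.59 (SE 0.12). Probe set 201430_s_at was at 382, 493 and 327 in control and 154, 153 and 147 in PARK2 arrays, a difference of -1.30 (SE 0.17). On both, all PARK2 arrays lay below all control arrays, and the PARK2 arrays were closer to one another (SD 3.80 and 3.89) than the control arrays were (SD 172 and 84.6). The remaining probe set, 237292_at, was under the filter, its groups overlapped, and its difference was -0.06 (SE 0.30).

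TUBB3 codes for beta-III tubulin, the isotype used as a marker of neurons and also present in many tumours. Probe set 213476_x_at was at 3947, 3875 and 3658 in control and 5217, 5594 and 5179 in PARK2 arrays. Probe set 202154_x_at was at 3783, 3107 and 3148 in control and 5624, 5819 and 4949 in PARK2 arrays. Both placed every PARK2 array above every control array, with log2 differences of 0.48 (SE 0.05) and 0.71 (SE 0.12). Both are of the _x_at type, so part of the signal could come from other tubulin transcripts, which was not tested; the values of other tubulins are given further on.

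MAPT codes for tau and had the most probe sets, 6, and they disagreed. On 225379_at the gene was at 25.7, 27.0 and 20.0 in control and 9.70, 4.08 and 5.17 in PARK2 arrays, and on 203928_x_at at 44.3, 39.8 and 28.7 against 14.7, 13.9 and 27.1. These placed all PARK2 arrays below all control arrays, with differences of -0.85 (SE 0.13) and -0.64 (SE 0.21). On 225379_at the PARK2 arrays were themselves under the filter's floor, so that the probe set passed through its control values and the size of its difference is not firm, at -1.85 and -0.33 with pseudocounts of 1 and 64, and 203928_x_at was at -1.02 and -0.30. The brightest, 203929_s_at, was at 75.6, 82.6 and 65.6 in control and 56.3, 45.9 and 97.2 in PARK2 arrays. There PARK2 replicate 3 was the highest of the 6, the groups overlapped, and the difference was -0.18 (SE 0.27). It was also the highest PARK2 array on 206401_s_at, at 29.5 against 18.8 and 16.3, where control arrays were at 19.7, 30.3 and 25.4 (difference -0.14, SE 0.19). The last pair, 233117_at and 203930_s_at, was under the filter with overlapping groups and differences of -0.09 and -0.21.

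MAP2, the microtubule-associated protein of dendrites, overlapped between the groups on both probe sets. Probe set 225540_at was at 606, 527 and 442 in control and 389, 443 and 468 in PARK2 arrays, a difference of -0.26 (SE 0.15). Probe set 210015_s_at was at 78.3, 77.3 and 49.8 against 53.5, 56.1 and 77.6, a difference of -0.10 (SE 0.22). STMN2, the growth cone protein stathmin-2 that destabilises microtubules, was between 0.422 and 7.12 in all 6 arrays on both probe sets. It was under the filter, and its differences were -0.02 (SE 0.15) and 0.01 (SE 0.16).

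Over the 26 probe sets, all PARK2 arrays were above all control arrays in 5 (3 of NEFL and 2 of TUBB3) and below them in 7 (3 of GAP43, 2 of MAPT and 2 of DPYSL3), and the groups overlapped in 14. Among all 41091 probe sets with 1 gene symbol, 12.5% lay entirely above and 14.1% entirely below. The 10 genes were chosen on this contrast, so nothing is read from the counts. Without PARK2 replicate 3, 11 of the 26 lay entirely below, the most with any single array left out. With an array left out this count can only stay or grow, and the share over all probe sets in that setting is not given here. Of the 26 probe sets 16 passed the low-value filter, from 6 of the 10 genes, and the 10 under it all had overlapping groups. The median difference over all 26 was -0.15, against 0.0017 over the 41091 probe sets. Probe sets of one gene often differed in size, so that no single value stands for NEFL (3.65 to 4.83), GAP43 (-3.56 to -0.54), MAPT or DPYSL3.

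**Figure D2:**
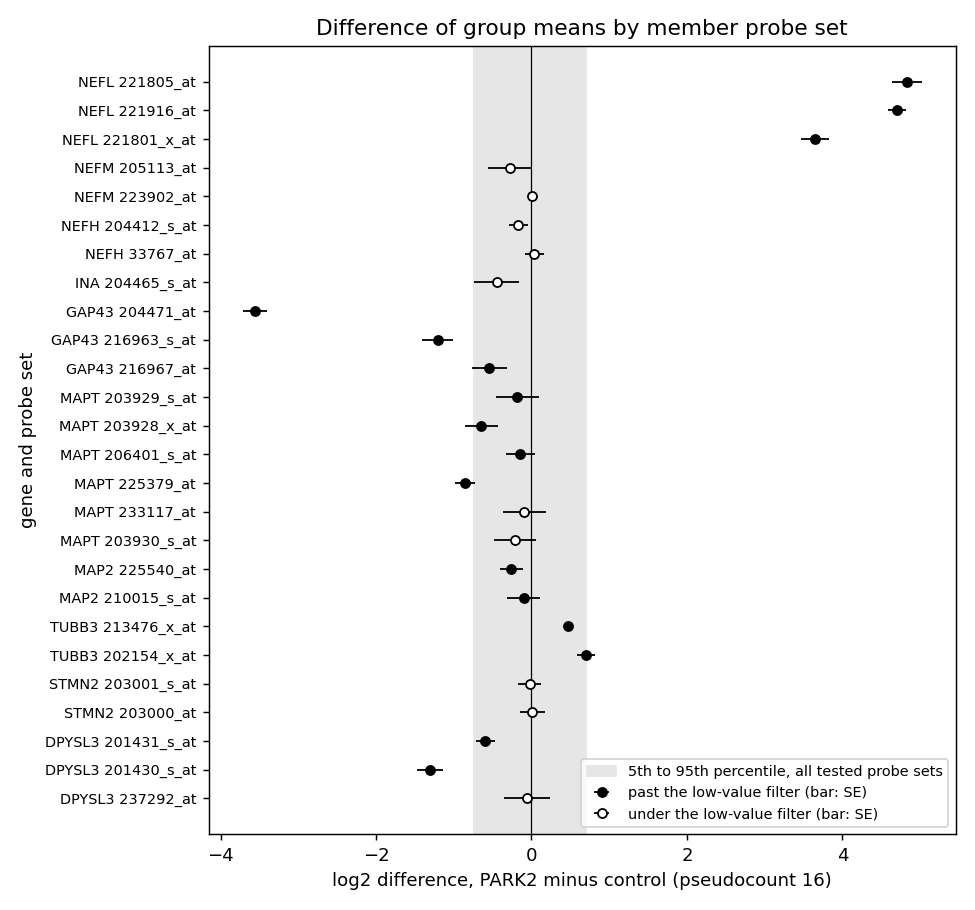
Log2 difference of group means, PARK2 minus control with pseudocount 16 (x axis), for each of the 26 member probe sets; bars are the SE, filled points passed the low-value filter and open points did not. The grey band spans the 5th to 95th percentile of all 26603 tested probe sets, -0.73 to 0.71, and the 3 NEFL probe sets, GAP43 204471_at and 216963_s_at, DPYSL3 201430_s_at and MAPT 225379_at lie outside it, and TUBB3 202154_x_at lies at its upper edge, just outside.

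The genes whose values followed NEFL most closely over the 6 arrays were MYLIP, AMPH, CDH6, BCHE and NMU, with Pearson's r of log2 values from 0.9993 to 0.9998 on their brightest probe sets. For GAP43 they were DTNA, FUT8, LONP2, GFUS and SIRPA, with r from 0.9983 to 0.9988. Their log2 differences ran from 1.44 (MYLIP) to 5.04 (BCHE) for the first group and from -2.20 (SIRPA) to -0.49 (LONP2) for the second. With 2 groups of 3 arrays such correlations reflect the group difference, and 744 genes for NEFL and 843 for GAP43 had r over 0.95. All points share the same 6 arrays.

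For the wider cytoskeletal and neuronal programme, 9 gene lists with 151 different genes were tested. PARK2 and control arrays were compared with limma over all 26603 probe sets, and adjusted p-values (Benjamini-Hochberg, threshold 0.05) are over all of them; each gene is read through its brightest probe set, and rose and fell are used of genes past this threshold. Of all probe sets 2422 (9.10%) were higher and 2994 (11.3%) lower, together 20.4%. Of the 13720 genes read in this way 10.8% were higher and 13.0% lower. Of the 115 list genes tested 22 rose and 16 fell, which is 19.1% and 13.9% of them, with a median log2 difference of 0.04 against -0.0026 over all genes. Of these, 13 and 10 kept their call with each single array left out. The lists were drawn up with earlier results of these data known.

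In the growth cone list 3 of 13 tested genes rose and 2 fell. MARCKSL1 and BASP1 code for membrane-bound proteins that, like GAP43, bind calmodulin or membrane lipids beneath the plasma membrane of growth cones. MARCKSL1 rose from 41.1, 41.3 and 36.5 to 531, 553 and 488 (log2 difference 3.28, limma SE 0.16, adjusted p 6.7e-11), and BASP1 from 8.33, 14.8 and 18.4 to 181, 169 and 178 (2.70, SE 0.18, adjusted p 9.0e-09). Both stood opposite in sign to GAP43, with no overlap between the groups. NRGN, neurogranin, which shares with GAP43 a calmodulin-binding IQ motif, fell from 432, 328 and 230 to 42.8, 54.3 and 48.2 (-2.39, SE 0.20, adjusted p 1.2e-07). The cell adhesion molecule L1CAM also rose (2.35), named here after its value was seen, as was PFN2, profilin-2, which fell (-0.38) and lost its call in 4 of the 6 fits with 1 array left out (adjusted p 0.054 to 0.116: control replicate 2 and each PARK2 array). MARCKS itself was at 0.08 (adjusted p 0.674). BASP1 was at 3.64 and 1.63 with pseudocounts of 1 and 64.

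Neuron markers outside the cytoskeleton were split. Of 13 tested genes 6 rose and 3 fell, and 10 more were under the filter. RTN1, a reticulon of the endoplasmic reticulum in neuroendocrine cells, rose from 6.84, 8.28 and 5.59 to 220.3, 229 and 231 (3.41, SE 0.17, adjusted p 1.3e-10). The synaptic vesicle calcium sensor SYT1 rose from 13.8, 9.76 and 17.6 to 144, 146 and 166 (2.50, SE 0.18, adjusted p 2.0e-08), and GAD1, which makes GABA, from 24.4, 13.3 and 11.3 to 128, 145 and 144 (2.28, SE 0.19, adjusted p 1.4e-07). These were dim in control arrays, so the sizes depend on the pseudocount: with 64, RTN1 was at 2.04, SYT1 at 1.47 and GAD1 at 1.34. The control mean of RTN1, 6.90, was under the filter's floor of about 9.96, so RTN1 passed the filter through its PARK2 values. CHGB, THY1 and NSG1, given here after their values were seen, fell by 1.18, 0.80 and 0.63. The call of NSG1 was lost without control replicate 2 or 3 or PARK2 replicate 1 or 2 (adjusted p 0.103 to 0.166). With pseudocounts of 1 and 64, CHGB was at -2.42 and -0.53 and NSG1 at -1.25 and -0.25. The PARK2 mean of NSG1, 9.72, was under the floor, so NSG1 passed the filter through its control values.

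Of 13 other intermediate filament genes tested 2 rose and 1 fell. Vimentin was among the brightest genes at 9404, 8717 and 8573 in control and 9514, 8721 and 8527 in PARK2 arrays, a difference of 0.0032 (adjusted p 0.988). PRPH, which codes for peripherin, another neuronal intermediate filament protein, was at 32.6, 29.5 and 34.9 against 24.4, 13.7 and 28.2 (-0.36, adjusted p 0.259). The keratin KRT18 fell by 1.12 (SE 0.18, adjusted p 2.3e-04). The glial filament gene GFAP (0.53, adjusted p 0.049) and the lamin gene LMNA (0.44, adjusted p 0.029) rose, but both calls were lost without control replicate 3 (adjusted p 0.165 and 0.104), PARK2 replicate 2 (0.155 and 0.130) or PARK2 replicate 3 (0.133 and 0.099), and that of GFAP also without control replicate 2 (0.211). As the mean of its probe sets GFAP was at -0.03 (adjusted p 0.943) and LMNA at 0.34 (adjusted p 0.083).

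Of 14 tested tubulins other than TUBB3, 2 rose and 2 fell. TUBB2B, a beta-tubulin of developing neurons, rose from 319, 263 and 259 to 831, 912 and 877 (1.59, SE 0.14, adjusted p 3.3e-07), and TUBB4B rose by 0.57 (SE 0.11, adjusted p 0.0013). Both probe sets are of the _x_at type, as are those of TUBB3. TUBA4A and TUBB6, the latter named after its value was seen, fell by 0.49 and 0.34, but both calls were lost without control replicate 2, without any 1 of the PARK2 arrays and without the intensity trend. TUBA4A had an adjusted p of 0.028, which became 0.0995 without control replicate 2 and 0.106, 0.058 and 0.069 without PARK2 replicate 1, 2 and 3. The number of higher tubulins was 4 with the replicate number as a block, 6 after quantile normalization and 5 without control replicate 1. That of lower tubulins was 1 without the low-value filter, against 2 in the main fit.

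Among microtubule-binding proteins 1 of 17 tested genes rose and 3 fell. MAP1A, a microtubule-associated protein of mature neurons, fell by 0.98 (SE 0.19, adjusted p 0.0012; -0.53 and 0.036 as the mean of its probe sets), and DCLK1, a doublecortin-like kinase, fell by 0.59 (adjusted p 0.011), though as the mean of its probe sets it was at -0.14 (adjusted p 0.541). DCLK2 rose by 1.05 (adjusted p 0.0072) from 3.04, 5.11 and 24.3 to 32.5, 33.8 and 43.2, and was past the threshold neither without control replicate 1 (adjusted p 0.058) nor as the mean of its probe sets (0.60, adjusted p 0.055). It was at 2.12 and 0.44 with pseudocounts of 1 and 64. The count of higher genes was 4 without control replicate 1 and 5 after quantile normalization.

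In the small list of stathmin and CRMP relatives, STMN1 rose by 0.61 (SE 0.13, adjusted p 0.0028), STMN3 fell from 223, 203 and 188 to 80.7, 59.4 and 76.1 (-1.33, SE 0.17, adjusted p 1.7e-05) and DPYSL4 fell by 0.47 (adjusted p 0.025). The fall of DPYSL4 was lost without control replicate 2 (0.107), PARK2 replicate 1 (0.071), PARK2 replicate 2 (0.113) or PARK2 replicate 3 (0.0605), and as the mean of its probe sets it was at -0.25 (0.321). DPYSL2, which codes for CRMP2, was at -0.06 (adjusted p 0.826).

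Of 19 tested genes for the kinases, transport and turnover of neurofilaments 5 rose and 3 fell. MYO5A, a motor that binds the light chain, fell by 0.94 (SE 0.14, adjusted p 8.3e-05), and TRIM2, a ubiquitin ligase of the light chain, fell from 950.2, 899 and 707 to 427, 479 and 518 (-0.82, SE 0.15, adjusted p 7.3e-04). The kinesin KIF5C, an axonal transport motor, rose by 0.82 (SE 0.15, adjusted p 8.9e-04). The count of higher genes ran from 1 (without control replicate 2) to 6 with a single array left out, and was 2 without PARK2 replicate 3 and 3 without PARK2 replicate 2. Among neuronal transcription regulators 2 of 12 rose and 0 fell: ID4, an inhibitor of helix-loop-helix factors, rose by 1.71 (SE 0.15, adjusted p 1.7e-07) and EBF1 by 0.52 (adjusted p 0.035), the latter lost without control replicate 2 (0.056), control replicate 3 (0.109), PARK2 replicate 2 (0.124) or PARK2 replicate 3 (0.138). REST, the repressor of neuronal genes in other cells, was at -0.12 (adjusted p 0.701). Of 11 neuronal RNA-binding proteins 1 rose, the splicing regulator NOVA1 (1.54, SE 0.21, adjusted p 4.6e-05), which was dim in control arrays at 7.80, 12.7 and 2.34. NOVA1 was at 2.83 and 0.69 with pseudocounts of 1 and 64, and it was not tested under a 60th percentile filter. The probe sets read for CHGB, DCLK2 and NSG1 were not tested under that filter either. The control mean of NOVA1, 7.63, was under the floor of the main filter, which NOVA1 passed through its PARK2 values.

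**Figure D3:**
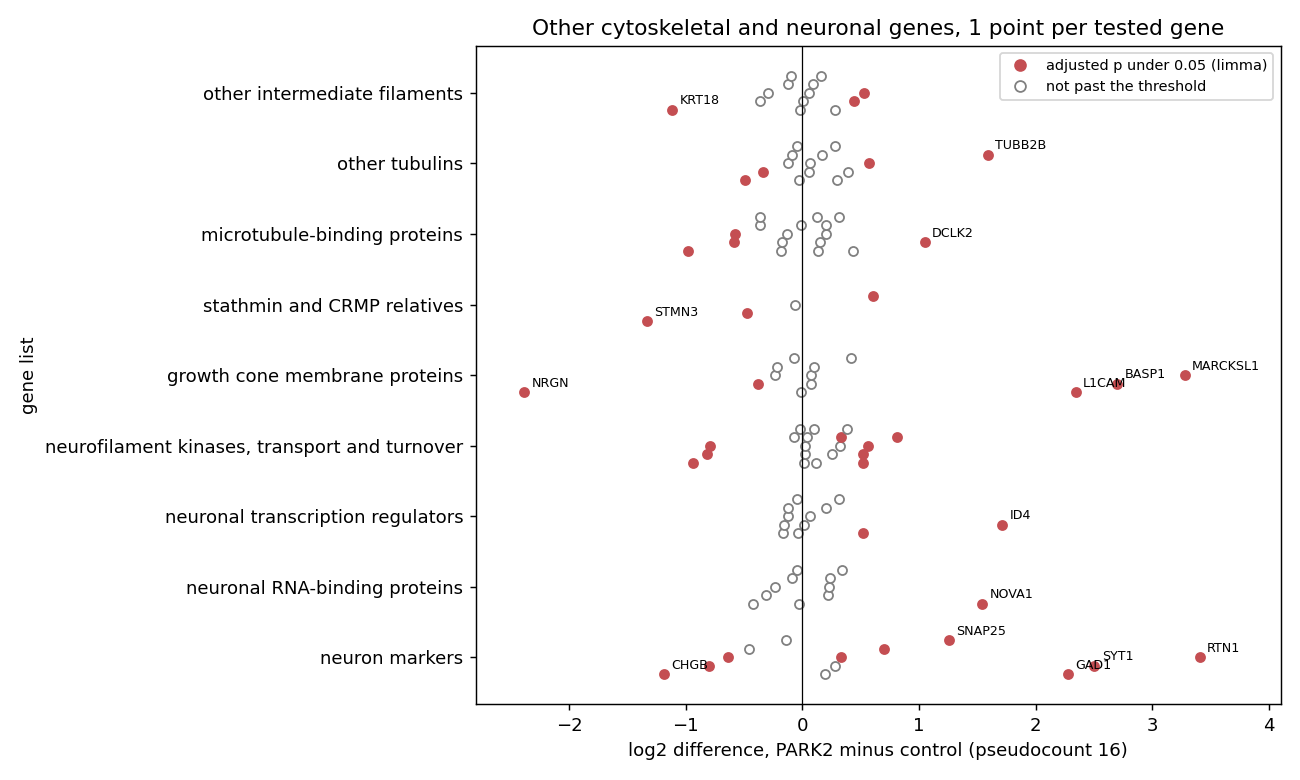
Log2 difference, PARK2 minus control with pseudocount 16 (x axis), of each tested gene in 9 lists (y axis; vertical offsets only separate points); filled points are past limma's adjusted threshold, and those of 2-fold or more are named. The growth cone list reaches from -2.39 (NRGN) to 3.28 (MARCKSL1), and the neuron markers from -1.18 (CHGB) to 3.41 (RTN1).

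The genes beside NEFL and GAP43 on their chromosomes were also read, since RefSeq places NEFM and NEFL as direct protein-coding neighbours on chromosome 8. Of the 5 tested genes on each side of NEFL, 2 rose (CDCA2 at 0.52 and ENTPD4 at 0.47, adjusted p 0.037 and 0.033) and 0 fell, and their differences ran from -0.04 to 0.52 with a median of 0.30. Both calls were lost without control replicate 3 (0.144 and 0.123) or any 1 PARK2 array (0.058 to 0.116), that of ENTPD4 also without control replicate 2 (0.134), and the mean of its probe sets put CDCA2 at 0.26 (0.259). On either side of GAP43, on chromosome 3, 3 of 10 genes fell and 0 rose, with a median of -0.11. ZBTB20, a zinc finger repressor, fell by 0.95 (SE 0.15, adjusted p 1.2e-04), QTRT2 by 0.58 (0.016) and ARHGAP31 by 0.50 (0.048; -0.31 with a pseudocount of 64). ARHGAP31 lost its call with the replicate block (0.056) and in 5 of the 6 fits with 1 array left out (0.079 to 0.174), and QTRT2 without control replicate 2 (0.052) or PARK2 replicate 2 (0.135). For the other members, the median over 10 neighbours ran from -0.64 (STMN2, 5 lower and 1 higher) to 0.36 (NEFM, whose neighbours include NEFL). The differences of NEFL (4.83) and GAP43 (-3.56) lay outside the range of their neighbours. Both genes were chosen for these differences, so nothing is read from this.

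**Figure D4:**
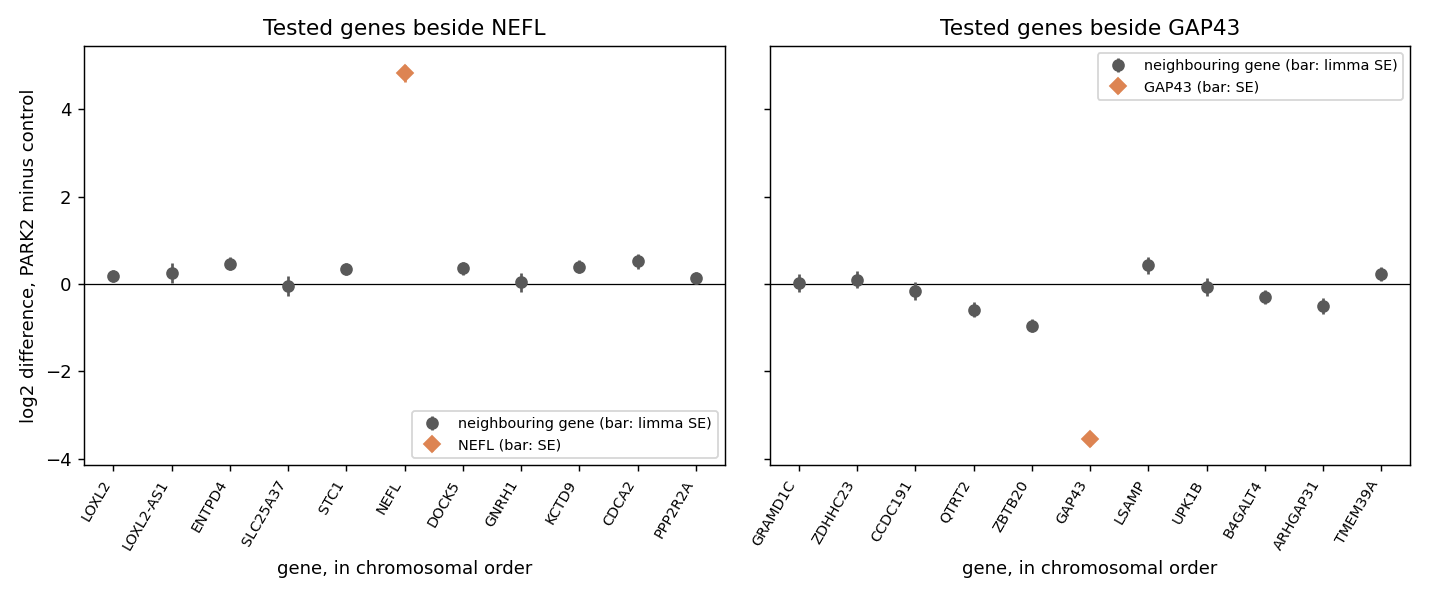
Log2 difference, PARK2 minus control (y axis), of NEFL (left) and GAP43 (right) and of the 5 tested genes on each side in chromosomal order (x axis, order only); bars are SE, from limma for the neighbours. Neighbours of NEFL lie between -0.04 and 0.52 and those of GAP43 between -0.95 and 0.43.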

How the data were processed

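Each array's deposited file column holds linear intensity values made by the authors; the submitters' processing notes name GCOS and MAS5, with no version or scaling target, so the scaling between arrays stays unknown. Gene symbols come from the platform table of GEO. The members and gene lists were chosen with earlier results of these data known. Intensities were turned into log2(value + 16) without further normalization. The test used limma 3.58.1 (R 4.3.3) with an intensity trend over the 26603 single-symbol probe sets whose mean log2 value was at or above the 40th percentile of non-control probe sets. Limma's prior had 13.7 degrees of freedom against 4 residual ones.

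Named were all members and the 3 largest changes past the threshold per list (else the 2 smallest p). Also named were the 5 genes most correlated with NEFL and GAP43, and 5 neighbours per side in RefSeq order. Outside this rule were L1CAM, PFN2, CHGB, THY1, NSG1 and TUBB6, as said, and also VIM, PRPH, MARCKS, DPYSL2 and REST. Cell type markers such as SNAP25, S100B and COL1A2 were outside it too. Deviations from the group mean correlated between arrays of the same number (r of 0.401, 0.179 and 0.130), but 2 pairs of other numbers reached 0.162 and 0.115 and the rest were -0.284 to -0.204, so the pairing is a weak sign from the data and is not stated in the labels. Arrays of 26603 probe sets were simulated for PARK2 against control, with all SDs drawn from limma's fitted prior. Of probe sets changed by 1.5-fold 15.7% were recovered, by 2-fold 75.4% and by 4-fold 100%, and 5 unchanged ones passed. The changed ones numbered only 70, 61 and 69 in that order, against 5416 called in the data. The adjusted threshold is stricter with so few changed, so these shares are not recovery rates for the real arrays. PARK2 transcript levels were not analysed here, so the group labels were not checked against the transgene. Alternatives covered the filter, pseudocount, normalization, variance model, probe set choice, replicate block and left-out arrays.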

Additional observations from a re-analysis of the deposited data

How the results depend on the processing

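Of the members, every probe set whose groups did not overlap kept its direction under pseudocounts of 1 and 64, median centring, quantile normalization and each left-out array. For the pseudocounts and left-out arrays the lack of overlap fixed this in advance, so only median centring and quantile normalization could have changed it. The difference of NEFL 221805_at was 4.30 with a pseudocount of 64 and 4.39 as the mean of its probe sets. That of GAP43 204471_at was -3.96 and -2.79 with pseudocounts of 1 and 64, and -1.77 as the mean of its probe sets. Member probe sets lying entirely below control numbered 7 to 11 with 1 array left out, where a lack of overlap comes more easily than with all arrays. Probe sets past the threshold and higher numbered 3707 after quantile normalization, and 1498 (without PARK2 replicate 3) to 3659 (without control replicate 1) with 1 array left out; the cause was not tested. With the replicate block 2569 probe sets were higher and 3202 lower (2422 and 2994 without it), and of the list genes 26 rose and 16 fell; among the named list and neighbouring genes it ended the call of ARHGAP31 and no other. Without the low-value filter the calls of GFAP, LMNA, EBF1, DCLK2, PFN2, NSG1, CDCA2, ENTPD4 and ARHGAP31 were lost. Lower tubulins numbered 1 there against 2 in the main fit, so TUBA4A or TUBB6 lost its call too. Without the intensity trend the calls of GFAP, LMNA, TUBA4A, DPYSL4, EBF1, PFN2, CDCA2 and ENTPD4 were lost. A pseudocount of 1 ended those of GFAP and NSG1, and the mean of probe sets those of NSG1 and EBF1 (adjusted p 0.163 and 0.054), beside those named above. List genes higher ran from 15 to 32 and lower from 11 to 18 over all settings. With 3 arrays a group and no detection calls used, values under about 10 intensity units have no firm order.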
